A study of Mus musculus with 38 samples.

Results

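The carboxylesterase family was followed through 10 liver genes, Ces1c, Ces1d, Ces1e, Ces1f, Ces1g, Ces2a, Ces2c, Ces2e, Ces3a and Ces3b, taken by symbol from the 21954 genes of an expected count table. The table holds 19 carboxylesterase genes in all, and all 10 chosen members passed the filter on low counts together with other genes to a total of 13786. RNA came from the livers of female wild-type C57BL/6 mice in 38 libraries of 13 groups. The labels give ages of 5 to 44 months that rise in step with sample order, so that no 2 groups overlap in age, and the effects of age and of diet or time, if the ages hold, cannot be told apart. Mice fed ad libitum (AL) gave 3 libraries at 0, 14 and 22 h and 2 at 6 h. Mice under calorie restriction (CR) gave 3 libraries at 6 and 14 h, 2 at 0 h and 4 at 22 h. Fasted mice (F) gave 3 libraries each at 6, 14 and 22 h, and CR mice that were fed or that missed their meal gave 3 libraries each at zeitgeber time (ZT) 18. The labels give neither the degree of restriction nor the event from which the hours count. They also do not say that each replicate is a separate animal, so the p-values measure the spread between these samples, which may be technical. Libraries are named here by group and replicate, such as AL_14h 3.

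Carboxylesterases are serine hydrolases that cleave carboxylic esters, among them ester drugs and the neutral lipids stored in cells. In the liver most of them lie in the lumen of the endoplasmic reticulum, where some release fatty acids from stored triacylglycerol that then enters very low density lipoprotein (VLDL). Rodents carry more genes of the family than humans, and the mouse genes stand in tandem clusters of close paralogs.

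The 10 genes are protein-coding and lie in 2 clusters on chromosome 8 in the GENCODE annotation of GRCm38. The 5 members of subfamily 1 lie on the minus strand, from Ces1c (chr8:93099015-93131283), which encodes an esterase secreted into plasma, through Ces1d (chr8:93166068-93197838), Ces1e (chr8:93201218-93229619) and Ces1f (chr8:93256236-93279747) to Ces1g (chr8:93302369-93337308). The other 5 lie on the plus strand in the order Ces2a (chr8:104734003-104741634), Ces2c (chr8:104847068-104854483), Ces2e (chr8:104926260-104934672), Ces3a (chr8:105048601-105058413) and Ces3b (chr8:105083753-105093929). The coding sequences of Ces3a and Ces3b were 95.3% identical, those within subfamily 1 72.3 to 81.5% and those within subfamily 2 82.2 to 83.6%. Of the 150-base windows of Ces3a, 21.1% matched a window of another carboxylesterase gene with up to 2 mismatches, against 17.7% for Ces3b, 6.08% for Ces1c and 0% for the other 7 genes. The split of reads between Ces3a and Ces3b is therefore uncertain, and their values are read together below. Some members have close relatives beyond the chosen genes. In coding sequence Ces1c is 88.7% identical to Ces1b, and Ces2c is 91.3% identical to Ces2b and 85.1% to Ces2g.

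Promoters of the genes that changed most often below, or that share a motif with them, are shown from RefSeq (GRCm38.p6), each from 250 bases before the start to 50 bases after it on the gene's own strand. RefSeq promoters were at hand for 7 of the 10 genes, not for Ces1d, Ces1f and Ces3a. Capitals mark TTATGTAA, a form of the D-box bound by clock-output factors such as DBP, TATAAA, the nuclear receptor half-site AGGTCA and TTGCNNAA, a C/EBP-like motif, each on either strand. These are Ces1c (chr8:93131234-93131533, minus strand), Ces1e (chr8:93229570-93229869, minus strand), Ces1g (chr8:93337160-93337459, minus strand), Ces2a (chr8:104733753-104734052, plus strand) and Ces2e (chr8:104926010-104926309, plus strand).
Ces1c: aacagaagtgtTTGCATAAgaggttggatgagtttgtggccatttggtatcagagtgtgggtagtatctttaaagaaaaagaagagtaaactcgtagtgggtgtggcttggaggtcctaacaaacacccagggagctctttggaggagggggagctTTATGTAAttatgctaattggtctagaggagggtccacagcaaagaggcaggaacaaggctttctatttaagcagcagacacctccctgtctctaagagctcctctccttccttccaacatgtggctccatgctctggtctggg
Ces1e: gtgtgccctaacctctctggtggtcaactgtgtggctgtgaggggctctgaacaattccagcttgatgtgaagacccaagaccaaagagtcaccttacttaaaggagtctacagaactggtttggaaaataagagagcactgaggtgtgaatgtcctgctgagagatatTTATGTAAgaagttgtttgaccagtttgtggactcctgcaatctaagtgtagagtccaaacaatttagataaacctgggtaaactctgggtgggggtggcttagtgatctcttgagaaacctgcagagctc
Ces1g: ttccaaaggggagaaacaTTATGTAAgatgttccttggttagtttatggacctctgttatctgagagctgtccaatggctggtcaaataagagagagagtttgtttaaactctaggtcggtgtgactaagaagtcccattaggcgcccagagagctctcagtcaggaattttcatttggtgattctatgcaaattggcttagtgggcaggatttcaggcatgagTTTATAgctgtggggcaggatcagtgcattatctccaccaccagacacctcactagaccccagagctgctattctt
Ces2a: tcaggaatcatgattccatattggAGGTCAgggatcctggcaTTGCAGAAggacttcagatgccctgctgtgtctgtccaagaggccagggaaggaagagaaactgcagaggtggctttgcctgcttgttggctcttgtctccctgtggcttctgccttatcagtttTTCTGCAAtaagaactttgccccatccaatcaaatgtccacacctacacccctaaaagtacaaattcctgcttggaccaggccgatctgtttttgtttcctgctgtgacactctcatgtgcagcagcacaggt
Ces2e: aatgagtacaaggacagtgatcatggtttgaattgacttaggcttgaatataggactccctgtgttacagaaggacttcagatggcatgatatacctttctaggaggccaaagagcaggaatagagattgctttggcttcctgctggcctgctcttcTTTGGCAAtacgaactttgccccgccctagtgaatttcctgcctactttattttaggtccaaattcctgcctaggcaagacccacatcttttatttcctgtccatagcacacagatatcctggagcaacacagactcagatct
The letters TTATGTAA began 94 bases before the start of Ces1c, 81 before that of Ces1e and 232 before that of Ces1g, and 0.938% of 32851 RefSeq promoters of the same length held them. TTGCNNAA stood 239 bases before the start of Ces1c, 208 before that of Ces2a and, on the opposite strand, 83 before that of Ces2a and 93 before that of Ces2e, against 10.8% of all promoters. AGGTCA began 226 bases before the start of Ces2a (16.3% of all promoters). TATAAA stood on the opposite strand 26 bases before the start of Ces1g and, on its own strand, 30 bases before that of Ces3b (13.6% of all promoters). The E-box CACGTG (7.15% of all promoters) and the forkhead motif GTAAACA (3.65%) were in none of the 7 windows at hand. The motifs were chosen with the sequences in view, and a match describes letters, not binding.

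Library totals ran from 17131292 to 30152277 expected counts, and the 10 genes together held 0.444 to 0.882% of them. Libraries were compared over genes other than the members: AL_0h 3 correlated more with the CR than with the other AL libraries, and CR_6h 3, CR_14h 3 and CR_22h 3 more with the AL than with the other CR libraries. These 4 are called below the libraries nearer the other diet, and results that rest on them are given with and without them. CR_22h 4 (r = 0.11 with F and -0.01 with CR) and CR_missed 1 (0.05 and 0.03) correlated more with the fasted than with the other CR libraries and were kept in all these fits. The clock genes of AL_0h 2 and AL_22h 2 correlated negatively with the other libraries of their labelled time (r = -0.69 and -0.97 over 8 genes). Hepatocyte markers (5 of the 6 listed were in the table) were high in every library, with albumin never below 47532 CPM (library-scaled counts of a gene). Summed adipocyte markers were at most 1.43 CPM except in CR_fed 1 (36.3 CPM). Summed pancreas markers ran from 1.03 to 43.8 CPM, highest in F_14h 1 and next in CR_6h 3 (27.0 CPM).

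Per unit of transcript length, the genes spanned a wide range of levels. On the authors' rescaled TPM, a level per transcript length, Ces1c averaged 2803 over the 13 group means and made up 53.9% of the summed level of the 10 genes. Ces1d, the triacylglycerol hydrolase that feeds VLDL assembly, followed with 899 TPM (17.3%), then Ces3a with 442 (8.49%), Ces1f, a related hydrolase of the endoplasmic reticulum, with 262, and Ces2a with 226. Ces1g stood at 207, Ces3b at 126, Ces2e at 120.1, Ces1e, which anchors beta-glucuronidase in the endoplasmic reticulum, at 105, and Ces2c, a lipid hydrolase of subfamily 2, at 15.1. Only the first and the last step of this order held throughout: Ces1c was above Ces1d and Ces1e above Ces2c in 38 of 38 libraries. The other 7 neighbours kept their order in 19 to 30 of 38 libraries, and their libraries were fully separated in 3 to 7 of the 13 groups, so that the order of these neighbours changed with the group.

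The genes also differed in how widely their levels ranged. Over the 38 libraries Ces1c stayed between 2442 and 4568 CPM, a 1.87-fold span, and Ces1f between 206 and 460.2 CPM, a 2.24-fold span. Ces3b ran from 13.8 to 415 CPM, a 30.2-fold span, and Ces3a from 81.9 to 1260.2 CPM, a 15.4-fold span. Ces1d (348 to 2603 CPM) and Ces2c (7.64 to 52.5 CPM) spanned 7.49-fold and 6.87-fold. The lowest member value, in Ces2c, rested on 151 counts, and those of the other genes on at least 283.

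**Figure D1:**
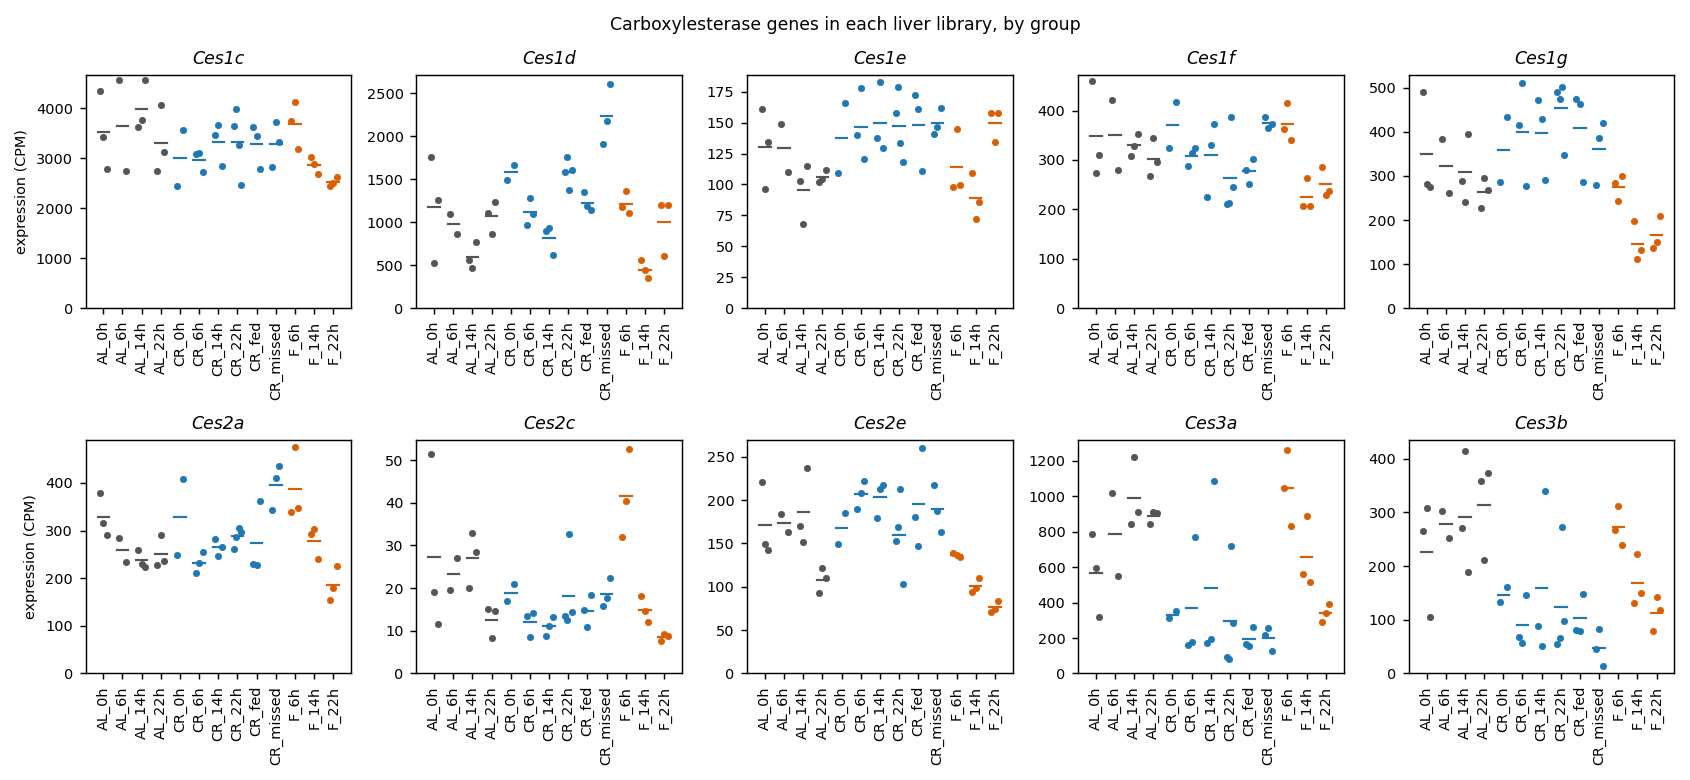
Each panel plots 1 carboxylesterase gene, with the group on the horizontal axis and the expression of each library in CPM on the vertical axis; points are libraries and lines mark group means. Ces1d is lowest in F_14h (348 to 559 CPM), Ces1g and Ces2e are low in F_14h and F_22h, and Ces3a and Ces3b are low in most CR libraries.

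Fasted and AL livers were compared at 6, 14 and 22 h to ask how fasted mice differed from freely fed mice. Fold changes are log2 values with the standard error of the model, and adjusted p-values come from edgeR's quasi-likelihood test with Benjamini-Hochberg adjustment over all 13786 genes; a gene is said to rise or fall where the adjusted p is under 0.05. At 6 h no member passed this test (0 of 10, against 2.34% of all genes), 1 had an unadjusted p under 0.05, and DESeq2 and limma called 0 as well. Fold changes ran from -0.35 ± 0.24 in Ces2e to 0.84 ± 0.42 in Ces2c (adjusted p = 0.365). Ces2a, an ester hydrolase of liver and intestine, read 339, 474 and 348 CPM in F_6h and 284 and 234 CPM in AL_6h, a difference of 0.58 ± 0.22 without overlap (adjusted p = 0.194). In this pair 4 of 10 members did not overlap, against 37% of all genes.

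At 14 h Ces1g and Ces2e fell in fasted livers, and no member rose. The 2 genes that fell are read against 12.7% of all genes called lower and 24.5% called in either direction. Ces1g, a lipid hydrolase of the endoplasmic reticulum, measured 289, 242 and 396 CPM in AL_14h and 198, 111 and 131 CPM in F_14h. Every fasted library was below every AL library, with a change of -1.07 ± 0.28 (adjusted p = 0.0064). Ces2e, an ester hydrolase of subfamily 2, measured 169.7, 152 and 237 CPM in AL_14h and 94.5, 98.9 and 110.1 CPM in F_14h, again without overlap (-0.88 ± 0.22, adjusted p = 0.00435). Both calls were lost without AL_14h 3, the highest AL library for either gene: Ces1g then stood at -0.86 (adjusted p = 0.0575) and Ces2e at -0.67 (adjusted p = 0.0515).

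The other 8 genes lay between -0.86 (Ces2c, adjusted p = 0.0935) and 0.23 (Ces2a) at 14 h. Ces1c (-0.48 ± 0.22), Ces1f (-0.55 ± 0.22) and Ces2c did not overlap between the groups either, all lower in F_14h, so that 5 of 10 genes were separated, against 38.3% of all genes and 19.4% lower. Without the libraries nearer the other diet, Ces1f (-0.53, adjusted p = 0.0358) and Ces2c (-0.85, adjusted p = 0.0290) fell as well, beside 28.6% of all genes. With every library kept, Ces1f also passed by DESeq2 (adjusted p = 0.0428) and by limma on filtered genes with pseudocounts of 1 and 0.1 (adjusted p = 0.0408 and 0.0401). Ces2c also passed by edgeR in a fit of the compared libraries alone (adjusted p = 0.0309). The members' median was -0.57, against -0.04 over all genes. In the same comparison longer transcripts tended to have higher fold changes (rho = 0.43 across 13712 genes, which are not independent replicates). The 2709 genes within the members' length range of 1828 to 2699 bases had a median of -0.19, and 14.2% of them were called lower. Summed hepatocyte markers ran from 80699 to 97760 CPM in F_14h and from 124436 to 132230 CPM in AL_14h, and summed sinusoidal endothelial markers from 190.3 to 227 and from 54.8 to 129 CPM. Their part in the result was not tested, and in bulk tissue fewer cells of a type and less RNA per cell cannot be told apart.

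At 22 h no member passed (0 of 10, against 11.5% of all genes), 6 had an unadjusted p under 0.05 by edgeR, and DESeq2 and limma called 0. The libraries of 7 of 10 members did not overlap between the groups, 6 of them lower in F_22h, against 34.2% of all genes without overlap and 18.4% lower without overlap. Ces3a measured 845, 912 and 907 CPM in AL_22h and 289, 339 and 391 CPM in F_22h, and Ces3b measured 358, 211 and 373 against 78.3, 142 and 117 CPM. The fasted libraries were all below the AL libraries for both genes, by -1.39 ± 0.64 (adjusted p = 0.154) and -1.48 ± 0.60 (adjusted p = 0.101). The shared estimate of spread for these genes takes in CR groups in which single libraries stood apart. In the fit without the 4 libraries nearer the other diet, none of which is in these groups, Ces3a (-1.38, adjusted p = 0.0076) and Ces3b (-1.47, adjusted p = 0.0144) fell, beside 16% of all genes called, and both also passed in a fit of the compared libraries alone (adjusted p = 0.00695 and 0.0174). Ces1e was the 1 separated gene that was higher in F_22h, at 158, 134 and 158 CPM against 102, 104 and 111 CPM (0.50 ± 0.23, adjusted p = 0.159).

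The test of whether the fasting effect differed between 6, 14 and 22 h called 0 of 10 members and 0.0653% of all genes by edgeR, with 2 members at an unadjusted p under 0.05 and none by DESeq2. No member's fasting effect is therefore called particular to an hour.

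**Figure D2:**
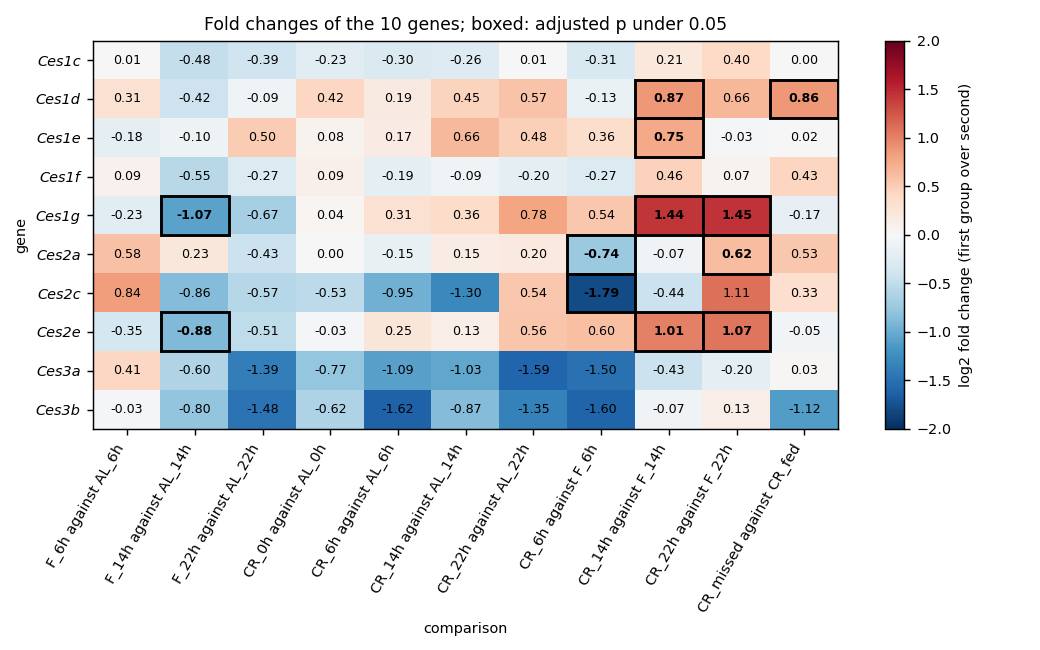
The heat map plots the log2 fold change of each carboxylesterase gene (rows) in each of the 11 pairs of groups (columns), with a colour bar in log2 units and boxes around values with an edgeR adjusted p under 0.05. Boxes fall on Ces1g and Ces2e at 14 h of fasting, on Ces2a and Ces2c in CR against fasted livers at 6 h, on Ces1g and Ces2e in both later CR against fasted pairs, with Ces1d and Ces1e at 14 h and Ces2a at 22 h, and on Ces1d after the missed meal.

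CR and AL livers were compared at 0, 6, 14 and 22 h to ask how they differed at a given hour. Since the labels do not give the event from which the hours count, restriction and time since the last meal cannot be told apart. With every library in the fit, no member passed at any hour by edgeR. Of all genes, 0.479%, 0%, 0.0218% and 4.88% passed at the 4 hours in turn. Unadjusted p-values under 0.05 were found for 0, 2, 2 and 6 members in that order. At 22 h DESeq2 called Ces1g and Ces2e, beside 8.96% of the genes it tested, and limma called Ces3a, beside 5.81%; neither called a member at the earlier hours.

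Ces3a and Ces3b showed the largest differences of this comparison at 6 and 22 h. Ces3a was lower in CR by -0.77 ± 0.71, -1.09 ± 0.69, -1.03 ± 0.63 and -1.59 ± 0.58 at 0, 6, 14 and 22 h, and Ces3b by -0.62, -1.62 ± 0.64, -0.87 ± 0.59 and -1.35 ± 0.54. At 6 h Ces3a measured 162, 176 and 772 CPM in CR and 1021 and 553 CPM in AL. At 14 h it measured 173, 197 and 1085 CPM in CR and 844, 1223 and 910.4 CPM in AL, and at 22 h 93.9, 81.9, 720.3 and 287 against 845, 912 and 907 CPM. In each of these CR groups 1 library lay among or near the AL values, and at all 3 hours it was the replicate 3 that stood nearer the AL libraries over other genes. Ces3b was also highest there, with 147, 339.7 and 272 CPM in those 3 libraries and 50.7 to 98.6 CPM in the other CR libraries of these hours. At 6 h, however, the 147 CPM lay below both AL libraries (303 and 252 CPM), so Ces3b did not overlap between the groups. In that pair 3 of 10 members did not overlap, against 16% of all genes.

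Without the 4 libraries nearer the other diet, Ces3a and Ces3b fell in CR at 6, 14 and 22 h. Ces3a changed by -2.22 at 6 h (adjusted p = 0.0174), -2.42 at 14 h (adjusted p = 0.00303) and -2.53 at 22 h (adjusted p = 7.19e-05). Ces3b changed by -2.17 (adjusted p = 0.0471), -2.06 (adjusted p = 0.0160) and -2.10 (adjusted p = 0.00135). In the same fits 0.562%, 4.31% and 14.8% of all genes were called. At 0 h neither gene passed (Ces3a -1.05, adjusted p = 0.182, beside 2.96% of all genes). This setting was chosen after the data were seen, by a rule that used no member gene. The rule did use the AL and CR difference over other genes, so it favoured larger diet differences. These calls are therefore not independent of the choice of libraries.

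Over all hours, the 11 AL libraries held Ces3a between 317 and 1223 CPM, with a median of 845, and the lowest was AL_0h 3, which stood nearer the CR libraries. The 18 CR libraries, ZT18 included, held it between 81.9 and 1085 CPM with a median of 205, and 15 of them without the 3 nearer the AL libraries between 81.9 and 352 CPM. Ces3b ran from 105 to 415 CPM in AL, again lowest in AL_0h 3, and from 13.8 to 161 CPM in those 15 CR libraries. The 9 fasted libraries ran from 289 to 1260.2 CPM for Ces3a, with a median of 559, and from 78.3 to 312 CPM for Ces3b. The 2 genes may share part of their reads, so their like pattern cannot be taken as 2 separate measurements.

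**Figure D3:**
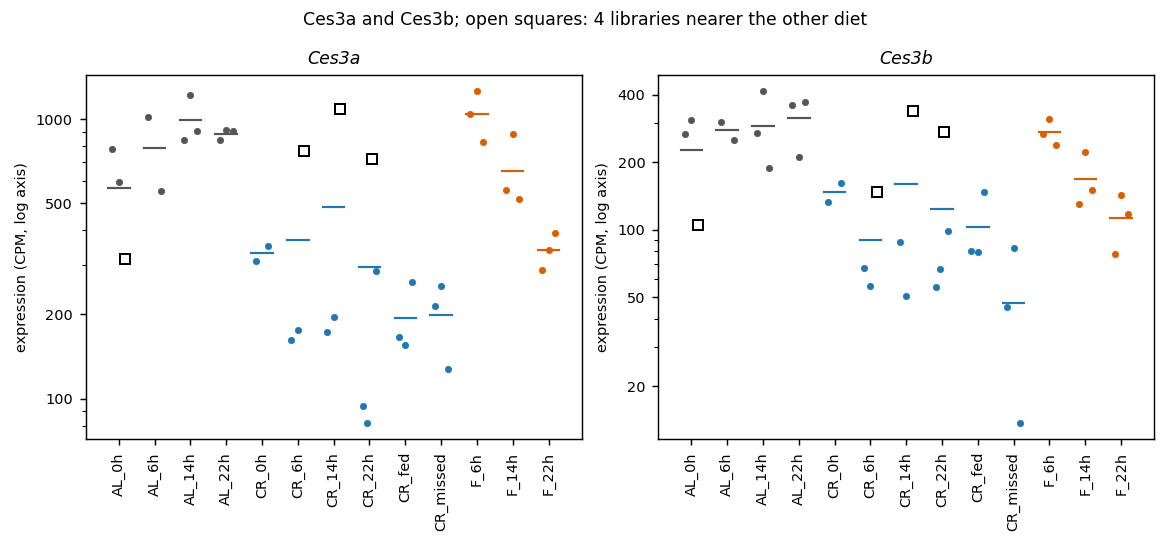
Ces3a and Ces3b are plotted in CPM on a log axis for every library by group, coloured by diet, with open squares for the 4 libraries nearer the other diet. The CR squares sit at 720.3 to 1085 CPM for Ces3a while the other CR libraries lie at or below 352 CPM.

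Ces2c and Ces1e were the other genes that differed most between CR and AL at 14 h. Ces2c measured 8.74, 11.2 and 13.2 CPM in CR_14h and 20.0, 32.9 and 28.5 CPM in AL_14h, a separation of -1.30 ± 0.38 that did not pass over all genes (adjusted p = 0.217). It passed without the libraries nearer the other diet (-1.44, adjusted p = 0.0161). Ces1e measured 137, 183 and 129 CPM in CR_14h against 103, 68.1 and 115 CPM in AL_14h, without overlap (0.66 ± 0.23, adjusted p = 0.331). At 14 h 2 of 10 members did not overlap, against 9.68% of all genes. At 22 h Ces1g was higher in all 4 CR libraries (491, 475, 503 and 349 CPM) than in the AL libraries (227, 296 and 268 CPM), by 0.78 ± 0.27 (adjusted p = 0.0784). At 22 h 4 of 10 members did not overlap, 3 of them higher in CR, against 15.1% of all genes and 7.21% higher. The test of whether the CR effect differed between hours called 0 members and 0.442% of all genes by edgeR, with 1 member at an unadjusted p under 0.05 and none by DESeq2.

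CR and fasted livers were compared at 6, 14 and 22 h to set the CR groups against the fasted groups. Here too, restriction and time since the last meal cannot be told apart. These comparisons share the fasted libraries with those above, so the values stand side by side and are not separate evidence. Ces2a and Ces2c were lower in CR at 6 h, and Ces1g and Ces2e were higher in CR at 14 and 22 h. The hours differed for both genes of the first pair: a test of the CR against fasted difference over the 3 hours, added after the data were seen, called Ces2a (adjusted p = 0.0144) and Ces2c (adjusted p = 0.00725), beside 2.83% of all genes. By the same test neither Ces1g (adjusted p = 0.256) nor Ces2e (adjusted p = 0.578) passed, so their differences are not called particular to the later hours.

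At 6 h the 2 genes that were lower in CR are read against 3.41% of all genes called lower and 6.8% in either direction. Ces2a measured 210.5, 232 and 255 CPM in CR_6h and 339, 474 and 348 CPM in F_6h (-0.74 ± 0.20, adjusted p = 0.0207). Ces2c measured 13.4, 8.54 and 14.2 CPM in CR_6h and 32.1, 40.4 and 52.5 CPM in F_6h (-1.79 ± 0.38, adjusted p = 0.00364). Ces2c kept its call when any 1 of the 6 libraries was left out, while Ces2a lost it without CR_6h 1 (-0.67, adjusted p = 0.106), CR_6h 2 (-0.73, adjusted p = 0.0555) or F_6h 2 (-0.56, adjusted p = 0.149). Neither gene overlapped between the groups, and 7 of 10 genes were separated in all, 6 of them lower in CR, against 27.7% of all genes and 14.1% lower. The 1 separated gene that was higher in CR was Ces2e, at 190, 208 and 222 CPM against 139, 136 and 134 CPM (0.60 ± 0.22, adjusted p = 0.0955). DESeq2 (adjusted p = 0.0475) and edgeR with the replicate number as a block (adjusted p = 0.0493) called it. Ces3a (-1.50 ± 0.64, adjusted p = 0.163) and Ces3b (-1.60 ± 0.60, adjusted p = 0.106) passed without the libraries nearer the other diet, at -2.63 (adjusted p = 0.000283) and -2.14 (adjusted p = 0.00585), beside 8.73% of all genes. Ces3b also passed by edgeR in the compared libraries alone (adjusted p = 0.0265).

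At 14 h Ces1d, Ces1e, Ces1g and Ces2e were higher in CR than in fasted livers, 4 of 10 against 9.1% of all genes called higher and 17.1% in either direction. Ces1g measured 472, 430.1 and 289.9 CPM in CR_14h against 198, 111 and 131 CPM in F_14h (1.44 ± 0.29, adjusted p = 0.000876). Ces2e measured 179.8, 213 and 218 CPM against 94.5, 98.9 and 110.1 CPM (1.01 ± 0.22, adjusted p = 0.00209). Both genes kept their call when any 1 of the 6 libraries was left out. Ces1d measured 902, 935 and 617 CPM against 559, 439 and 348 CPM (0.87 ± 0.29, adjusted p = 0.0379), and Ces1e 137, 183 and 129 CPM against 109, 71.8 and 86.0 CPM (0.75 ± 0.23, adjusted p = 0.0249). These 4 genes were the ones without overlap, against 32.4% of all genes. Ces1d lost its call without CR_14h 1, CR_14h 2, F_14h 2 or F_14h 3 (0.71 to 0.85, adjusted p from 0.0875 to 0.164), and Ces1e without CR_14h 2, F_14h 2 or F_14h 3 (0.58 to 0.73, adjusted p from 0.0777 to 0.132). In a fit of the compared libraries alone Ces1g and Ces2e remained called, and without the libraries nearer the other diet Ces3a was called lower (-1.84, adjusted p = 0.00343), beside 14.5% of all genes. Summed hepatocyte markers were 116115 to 152995 CPM in CR_14h and 80699 to 97760 CPM in F_14h, summed sinusoidal endothelial markers 134 to 183 and 190.3 to 227 CPM, and genes of the members' length range had 10.6% called higher with a median of 0.13. Their part in the result was not tested.

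At 22 h Ces1g, Ces2a and Ces2e were higher in CR, 3 of 10 against 5.13% of all genes called higher and 9.44% in either direction. Ces1g measured 491, 475, 503 and 349 CPM in CR_22h and 138, 151 and 209 CPM in F_22h (1.45 ± 0.27, adjusted p = 0.000839). Ces2e measured 152, 169, 213 and 103 CPM against 70.7, 74.0 and 83.7 CPM (1.07 ± 0.21, adjusted p = 0.00137). All CR libraries were above all fasted ones for both, and both calls held when any 1 of the 7 libraries was left out, although Ces2e did not pass in the compared libraries alone (1.05, adjusted p = 0.0627). In this pair 5 of 10 members did not overlap, all higher in CR, against 16.8% of all genes and 8.94% higher. Ces2a measured 261, 286, 306 and 297 CPM against 154, 179 and 226 CPM (0.62 ± 0.19, adjusted p = 0.0311), the opposite direction to its difference at 6 h. Its call was lost without CR_22h 2, F_22h 1 or F_22h 2 (0.50 to 0.63, adjusted p from 0.0594 to 0.190). It was also lost without the libraries nearer the other diet (0.58, adjusted p = 0.0517), where Ces3a was called lower (-1.16, adjusted p = 0.0249) beside 14.3% of all genes. Ces2c stood at 1.11 ± 0.36 (adjusted p = 0.0505), with CR_22h 3 at 32.6 CPM and the other CR libraries at 12.5 to 14.5 CPM.

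CR mice that missed their meal were compared with CR mice that were fed, both at ZT18. Ces1d rose after the missed meal, 1 of 10 genes against 6.34% of all genes called higher and 12.5% in either direction. It measured 1346, 1189 and 1146 CPM in CR_fed and 1910.2, 2173 and 2603 CPM in CR_missed, means of 1227 ± 105 and 2229 ± 350 CPM (SD, n = 3 each). Its libraries did not overlap, as in 34.5% of all genes, with a change of 0.86 ± 0.29 (adjusted p = 0.0484), and the missed-meal values included the highest Ces1d level of all 38 libraries. The call was lost whenever 1 of the 6 libraries was left out, with adjusted p from 0.056 to 0.185. It was also lost with DESeq2's size factors, with no filter and with limma on the rescaled TPM (adjusted p from 0.0502 to 0.0779), and kept in the other 6 settings, among them the DESeq2 test (adjusted p = 0.0237). Ces1f was the other separated gene, at 388, 365 and 373 CPM after the missed meal and 279, 252 and 302 CPM after feeding (0.43 ± 0.22, adjusted p = 0.207). Ces2a was higher by 0.53 ± 0.20 (adjusted p = 0.0724, and adjusted p = 0.0364 with DESeq2), and Ces3b was lower by -1.12 ± 0.59 (adjusted p = 0.234). With limma on the rescaled TPM, where Ces1d lost its call, Ces2a passed (adjusted p from 0.0435 to 0.0489). Summed endothelial markers were 172 to 195 CPM after the missed meal and 104 to 124 CPM after feeding, and summed stellate markers 273 to 342 and 204 to 227 CPM; their part in the result was not tested.

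The missed-meal effect and the 22 h fasting effect share no library. Their difference passed for 0 of 10 members and 0.885% of all genes by edgeR, with 3 members at an unadjusted p under 0.05. Ces2a came nearest, at 0.96 ± 0.28 (adjusted p = 0.0836), having been 0.53 higher after the missed meal and -0.43 ± 0.20 in F_22h against AL_22h. DESeq2 called this difference for Ces2a (adjusted p = 0.0241).

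Changes over the labelled hours were tested within each diet. In fasted livers Ces1d, Ces2a and Ces2c changed (adjusted p = 0.0117, 0.0078 and 0.0016), 3 of 10 against 2.86% of all genes. Ces2c measured 32.1, 40.4 and 52.5 CPM at 6 h, 18.1, 14.7 and 12.1 CPM at 14 h and 7.64, 9.17 and 8.73 CPM at 22 h, and Ces2a averaged 387 ± 75.7, 279 ± 34.6 and 187 ± 36.7 CPM (SD, n = 3 each). Ces2c kept its call whichever of the 9 libraries was left out, Ces2a lost it without F_6h 2 (adjusted p = 0.0630) or F_22h 1 (adjusted p = 0.0515) and Ces1d without F_14h 3 (adjusted p = 0.0816). Both genes stepped down from hour to hour with no overlap between neighbouring hours. Ces1d instead was lowest in the middle, at 1216 ± 131 CPM at 6 h, 449 ± 106 at 14 h and 1001 ± 345 at 22 h, where F_22h 2 held 602 CPM and the other 2 libraries 1199 and 1202 CPM.

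Ces1d was also the 1 member that changed over the hours in CR (adjusted p = 0.0403), against 20.6% of all genes. It averaged 1578 ± 129 CPM at 0 h (n = 2), 818 ± 175 CPM at 14 h (n = 3) and 1582 ± 158 CPM at 22 h (n = 4), with 965, 1282 and 1096 CPM in between at 6 h. The CR_14h libraries lay below all other CR libraries. The call was lost when any 1 of 9 of the 12 libraries was left out (adjusted p from 0.0552 to 0.135), with the replicate number as a block (adjusted p = 0.0511) and without the libraries nearer the other diet (adjusted p = 0.136). In AL livers 0 of 10 members passed by edgeR (0.276% of all genes) with 3 at an unadjusted p under 0.05, and DESeq2 called 0. Ces1d averaged 600.1 ± 152 CPM at 14 h and 1068 ± 190 CPM at 22 h in AL. At 0 h it read 1759, 528 and 1253 CPM, and the 528 belongs to AL_0h 2, whose clock genes ran against its label. Without that library and AL_22h 2, Ces1d passed in AL too (adjusted p = 0.0120, beside 3.68% of all genes).

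**Figure D4:**
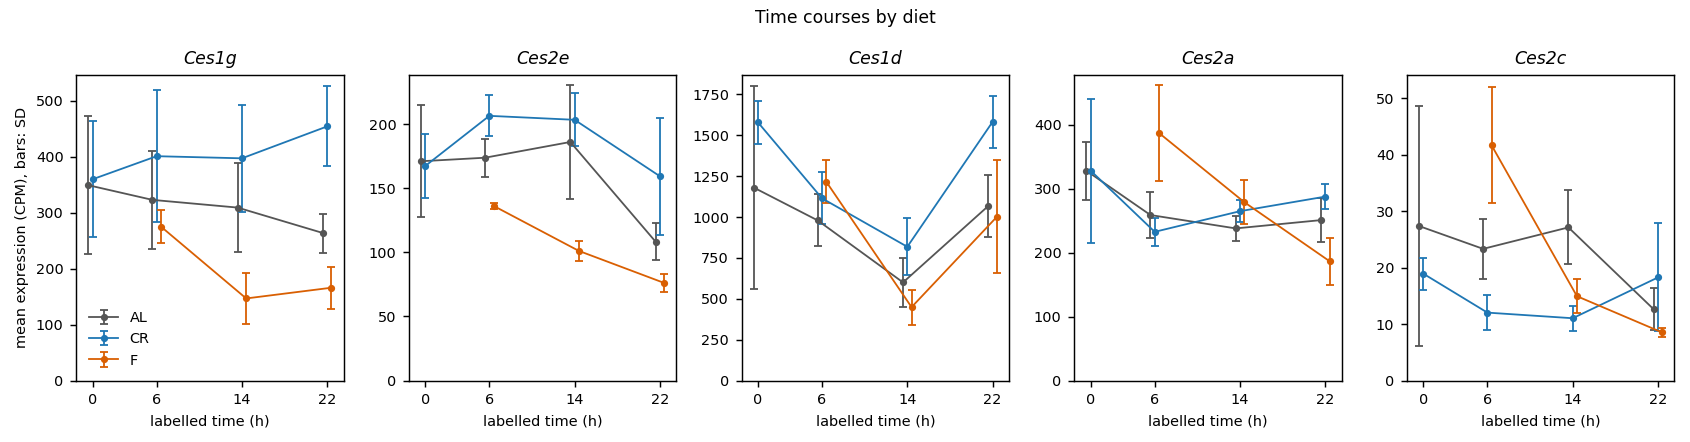
Group means in CPM with SD bars are plotted against the labelled hour for Ces1g, Ces2e, Ces1d, Ces2a and Ces2c, with 1 line for each of AL, CR and F. Ces2a and Ces2c step down over the fasted hours, and Ces1d is lowest at 14 h in all 3 diets.

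Because paralogs may share reads, the counts were also summed over the members of each subfamily and refitted with the sums in place of the 10 genes. Relatives outside the 10, such as Ces1b and Ces2b, were not in the sums. Of 33 tests over the 11 pairs, 1 passed: the Ces2 sum was higher in CR_22h than in F_22h (0.78 ± 0.18, adjusted p = 0.00526), a call that was lost without F_22h 1 (0.67, adjusted p = 0.0590). The Ces2 sum also changed over the hours within fasted livers (adjusted p = 0.00496). The Ces1 sum stood at -0.50 ± 0.20 in F_14h against AL_14h (adjusted p = 0.0721) and the Ces3 sum at -1.41 ± 0.61 in F_22h against AL_22h (adjusted p = 0.125). Within subfamily 1, Ces1d, Ces1e and Ces1g passed in CR_14h against F_14h and Ces1c and Ces1f did not, and the differences between these genes were not tested.

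Across the 13 group means of log2 CPM, Ces3a and Ces3b correlated at 0.90, and Ces1g with Ces2e, from different subfamilies and clusters, at 0.86. Over the 38 libraries these values were 0.88 and 0.70. Next came Ces1c with Ces2c at 0.75 over group means and 0.41 over libraries, Ces1d with Ces1e at 0.70 and 0.67 and Ces2a with Ces2c at 0.66 and 0.55, while Ces1e ran opposite to Ces3a (-0.80). These correlations describe points that share libraries and depth. Outside the family, the genes with the group pattern most like that of a member, by Pearson correlation of the same 13 means among 7281 genes of at least 10 CPM, were Otc (0.97) and Aadac (0.96) for Ces1c, Akr1c19 (0.96) for Ces1d, Vegfb (0.97) and Ybx1 (0.93) for Ces1g, Trf (0.94) and Gstm3 (0.92) for Ces2e, and Mup3 (0.96) and Mup10 (0.95) for Ces3a. The best match was weaker for Ces2c (Ugt2b1, 0.82), Ces1e (Pgk1, 0.83) and Ces2a (Unc119b, 0.83).

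Of the 9 other carboxylesterase genes, 6 passed the filter on low counts, and Ces2g was the 1 with calls and separated libraries. Ces2g measured 44.3, 59.8 and 51.0 CPM in AL_14h, 29.1, 33.8 and 35.4 CPM in F_14h and 58.9, 56.4 and 47.5 CPM in CR_14h. It was lower in F_14h than in AL_14h (-0.66 ± 0.20, adjusted p = 0.0174), higher in CR_14h than in F_14h (0.73 ± 0.20, adjusted p = 0.0126) and lower after the missed meal (-0.66 ± 0.20, adjusted p = 0.0284).

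Other hydrolases of neutral lipids and esters rose and fell in fasted livers. Of 20 listed, 7 rose and 3 fell in F_14h against AL_14h, and 5 rose and 1 fell in F_22h against AL_22h, beside 24.5% and 11.5% of all genes called in either direction. Nceh1, a cholesteryl ester hydrolase, rose by 1.51 ± 0.26 at 14 h and 1.58 at 22 h, and Pnpla2, the adipose triglyceride lipase, by 1.91 ± 0.42 and 1.77. Aadac, an arylacetamide deacetylase with lipase activity and the gene most like Ces1c by group pattern after Otc, fell by 0.76 on the log2 scale at 14 h. After the missed meal Nceh1 rose by 2.10 ± 0.26, and 3 of the 20 genes rose and 2 fell, beside 12.5% of all genes. Among 6 VLDL assembly genes 2 rose and 1 fell in F_14h and 2 rose in F_22h, beside 24.5% and 11.5% of all genes; Mttp, the lipid transfer protein of VLDL assembly, rose by 1.29 ± 0.28 and 1.23 ± 0.28. Among 16 transcription factors of drug and lipid metabolism, 4 rose and 2 fell in F_14h and 3 rose after the missed meal, beside the same 24.5% and 12.5% of all genes, where Ppara, the fatty acid receptor, stood at 2.07 ± 0.35. The lists differ in size and level, and the difference between them and the carboxylesterases was not tested.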

How the data were processed

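Liver RNA of 38 samples was sequenced as non-directional polyadenylated libraries, per the labels. The authors aligned 150-base paired reads with Bowtie, allowing 2 mismatches, to coding genes of Ensembl GRCm38; the deposited expected counts are RSEM 1.2.3 estimates, per the labels' protocols. The other deposited file, a signal made by the authors from TPM with EBSeq per the labels, was used only to compare levels between genes and for limma.

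Expected counts were rounded. One edgeR 4.0.16 model (R 4.3.3) with 13 group terms kept 13786 genes by filterByExpr, scaled them by TMM and used the quasi-likelihood F test with Benjamini-Hochberg adjustment and a threshold of 0.05; no covariate was used, since the labels name no batch. The common dispersion was 0.0785. The standard error is the size of the log2 change over the root of its F statistic. CPM used TMM-scaled totals, and reads carry no molecular identifiers. Standard errors and SDs cover the spread between samples only. The members, gene lists, named genes and tests were chosen with earlier results of these data known: members were named where they passed, and list genes where they were called at 5 CPM or more without overlap, up to 4 a list. Cell markers were Alb, Apoa1, Ttr, Fgb and Ass1 for hepatocytes, with lists for Kupffer, endothelial, stellate, bile duct, fat, pancreas and blood cells. Coordinates and lengths came from GENCODE vM21. Matching replicate numbers paired the samples only for the missed meal (correlations of deviations 0.244 to 0.414 in 3 pairs, from the data and not the labels). Alternatives were DESeq2 1.42.0 (its size factors, and its test), no filter, limma 3.58.1 with pseudocounts of 1 and 0.1, the compared libraries alone, a replicate block, each library left out, and, added after seeing the data, leaving out libraries that stood apart by diet, by clock genes or by either. In simulated data for F_22h against AL_22h on 13786 genes, edgeR recovered 61% of log2 changes of 1 and 99% of 2, with 3.03% of calls false. The counts were drawn from each gene's mean over all libraries and its fitted dispersion, with 100 changed genes of each size at 5 CPM or more. No other difference between groups was simulated, unlike in the real data. No simulated library stood apart from its group, so the 3.03% is not the error rate of the calls in the real data.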

Additional observations from a re-analysis of the deposited data

Results flagged for a closer look

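Ces2c in CR_22h had 1 library far from the rest: CR_22h 3 held 32.6 CPM and the other 3 libraries 12.5 to 14.5 CPM, and this library also stood nearer the AL libraries over other genes. The 10 members were examined in the 1 group of 4 libraries, and chance sets apart about 1 such group in 20. The difference between CR and fasted livers changed with the hour for Ces2a (adjusted p = 0.0144) and Ces2c (adjusted p = 0.00725) by edgeR's quasi-likelihood test, a test added after the data were seen, beside 2.83% of all genes. Ces2a was lower in CR at 6 h (-0.74 ± 0.20) and higher at 22 h (0.62 ± 0.19), and Ces2c went from -1.79 ± 0.38 to 1.11 ± 0.36.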

How the results depend on the processing

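Counts are of the 10 carboxylesterase genes called, or of the subfamily sums where these are named, and no fold change reversed. Calls of genes and of 2 subfamily sums were recomputed: 131 values kept their call and 13 lost it under settings of scaling, filter, test, block or compared libraries, 96 kept it and 34 lost it with 1 library left out, and 52 kept it and 2 lost it without the libraries that stood apart. Without the libraries nearer the other diet, F_14h against AL_14h called 4, F_22h against AL_22h 2, CR against AL 2 at 6 h, 3 at 14 h and 2 at 22 h, CR_6h against F_6h 4, the time within F 6 and the subfamily sums 8. Without these and the libraries with deviant clock genes, the counts were 4, 3, 2, 3, 2, 4, 7 and 8 in the same order, 1 for CR_0h against AL_0h, 5 for CR_22h against F_22h, 2 for the time within AL, 3 within CR and 1 for the fasting effect over time. Without the clock libraries alone, the time within AL called 1. In the compared libraries alone, F_22h against AL_22h called 2, CR_14h against F_14h 2, CR_22h against F_22h 1 and the time within F 7. DESeq2 called 2 in CR_22h against AL_22h, 2 after the missed meal, 6 over time within F, 1 for the missed-meal against the fasting effect and 3 subfamily sums. After the missed meal DESeq2's size factors and no filter each left 0. limma called 1 in CR_22h against AL_22h and 2 subfamily sums with either pseudocount. After the missed meal limma called Ces2a and not Ces1d, which left the count unchanged. The cause of these differences was not tested. The share of all genes called also changed with the setting. It went from 4.88% to 14.8% in CR_22h against AL_22h without the libraries nearer the other diet. These shares are not set beside each count of this section. The counts therefore describe how calls moved and not whether the members differed from other genes.

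With the replicate block, CR_22h against AL_22h called 1 (Ces2e at 0.71, adjusted p = 0.0360) and the time within CR 0, and CR_6h against F_6h called 3, CR_22h against F_22h 4 and the time within F 4. The block gave each replicate number 1 effect shared by all 13 groups, so it was not a paired fit of the missed meal. Such a paired fit was not run. With the block edgeR kept Ces1d after the missed meal (0.87, adjusted p = 0.0421). In the other pairs of groups matching numbers did not pair the samples by their correlations, and the block changed no other count. Groups of the same diet at different hours were not examined for pairing, although replicate 3 stood nearer the AL libraries in CR_6h, CR_14h and CR_22h.

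Leaving out each library in turn gave 0 to 2 for F_14h against AL_14h, 0 to 2 for CR_22h against AL_22h, 1 to 3 for CR_6h against F_6h, 2 to 4 for CR_14h against F_14h, 2 to 4 for CR_22h against F_22h, 0 to 1 after the missed meal, 0 to 1 over time within AL and within CR, 2 to 3 within F, 0 to 1 for the missed-meal against the fasting effect and 0 to 2 subfamily sums. The other counts stayed at 0. Where a group fell to 1 library, that library was assumed to vary like the others. Groups of 2 to 4 libraries limit what can be called.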
